A study of Mus musculus with 8 samples.

Results

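The 10 circadian clock genes Arntl, Clock, Per1, Per2, Per3, Cry1, Cry2, Nr1d1, Nr1d2 and Dbp were followed in RNA-seq of whole mouse aortas. They are 10 of the 48607 loci of the deposited gene table. A gene was taken as the row that carries its symbol, and where several rows did, as the row with the most counts, so that 14 rows gave 10 loci. All 8 libraries came from mice fed a Western diet, and all mice lacked ApoE, the apolipoprotein that clears lipoprotein remnants. The titles named 5 libraries ApoE-/- 1 to 5 and the remaining 3 NPRC-/-ApoE-/- 1 to 3, in which a CRISPR frameshift in Npr3 was to inactivate the natriuretic peptide receptor NPRC in every cell. The study's methods describe the 2 genotypes as littermates kept under a light and dark cycle, and the hour at which aortas were taken is not given in the sources used here.

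The genotype entered for each sample was that of the title in 4 libraries, ApoE-/- 1, 2 and 3 and NPRC-/-ApoE-/- 3. In the other 4 it conflicted. The libraries titled ApoE-/- 4 and 5 were entered as NPRC-/-ApoE-/-, and those titled NPRC-/-ApoE-/- 1 and 2 were entered as ApoE-/-, so every comparison was made by title and repeated by genotype entry. Npr3 itself did not separate the groups, with a log2 fold change of 0.10 by title (standard error 0.28) and 0.16 by genotype entry (standard error 0.28). A frameshift need not lower the level of a transcript, so Npr3 did not settle which label was right. Total counts ran from 62969165 to 86693276 per library. Levels are given as FPKM, the values deposited by the authors, which scale fragments by transcript length and by the mapped fragments of the library, or as log2 CPM (CPM are counts scaled to a common library total after TMM scaling), with a prior count of 2. The study's methods count the RNA-seq samples as mice, equally many of each genotype. Here 5 libraries titled ApoE-/- and 3 titled NPRC-/-ApoE-/- were analysed, and no label ties a library to an animal, so p-values measure the spread between these libraries.

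The circadian clock is a loop of transcription that runs in nearly every cell, including smooth muscle and endothelium of the vessel wall. ARNTL (also called BMAL1) pairs with CLOCK, binds E-box DNA and activates the genes for PER and CRY proteins, which return to the nucleus and block the pair. The same pair activates Nr1d1 and Nr1d2, whose proteins REV-ERBα and REV-ERBβ repress Arntl, and Dbp, a transcription factor that drives output genes through D-box DNA. As a consequence Arntl peaks at the opposite time of day from Nr1d1 and Dbp in rhythmic tissues, with the Per genes peaking near or after Dbp and Cry1 later still. In arteries the clock is known for its part in the daily rhythm of blood pressure and vascular tone. A single harvest of each animal gives 1 point of its rhythm, and no rhythm can be read from such data.

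Across these libraries Arntl varied most, 8.44-fold in FPKM between the lowest and the highest library, and Dbp, Nr1d1, Nr1d2, Per2 and Per3 varied between 3.15-fold and 4.33-fold. Clock and Cry2 varied least, by no more than 1.51-fold. The library titled ApoE-/- 3 held the highest Arntl and the lowest Dbp, Per2 and Per3, whereas the library titled NPRC-/-ApoE-/- 2 held the lowest Arntl and the highest Dbp, Per2, Per3, Nr1d2 and Cry2. None of the 10 genes differed between the genotypes at an adjusted p-value under 0.05, by title or by genotype entry.

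**Figure D1:**
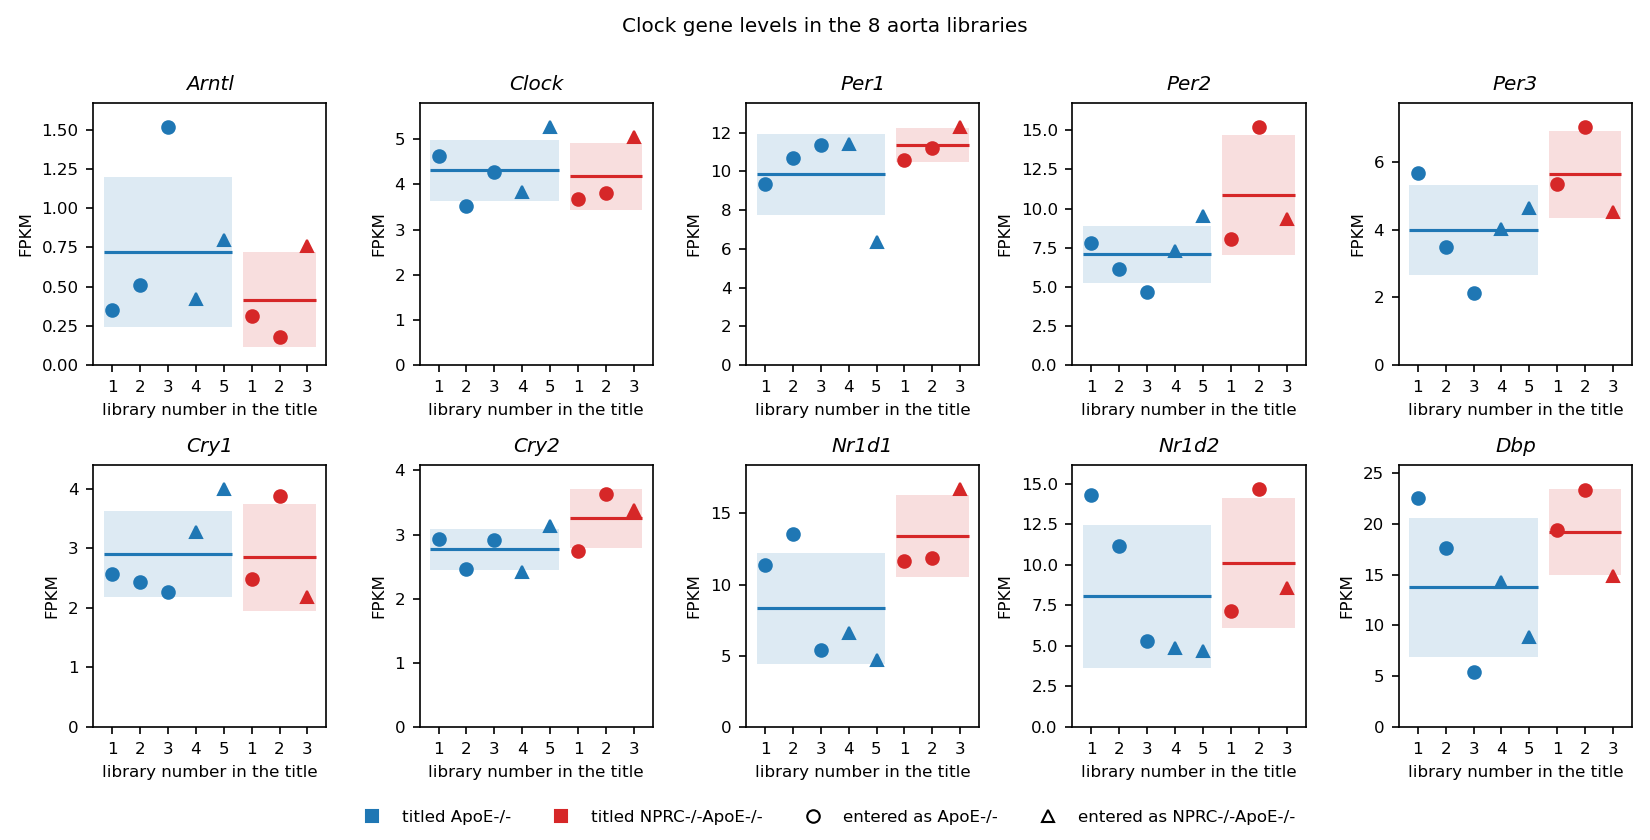
FPKM of the 10 clock genes in each library, with a separate linear axis from 0 for each gene. Colour gives the titled group and marker shape the genotype entry, lines are the means of the titled groups and shaded bands are 1 SD (n = 5 and n = 3). Arntl reaches 1.52 FPKM in ApoE-/- 3, the library in which Dbp is lowest at 5.39 FPKM, and in every panel the titled groups overlap.

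The genes were ordered by median FPKM, a scale that depends on the length assigned to each locus. Dbp came first at 16.3, followed by Nr1d1 at 11.5, Per1 at 10.965, Per2 at 7.93 and Nr1d2 at 7.85. Per3 came next at 4.59, then Clock at 4.06, Cry2 at 2.92, Cry1 at 2.53 and Arntl at 0.465. The ranges over the 8 libraries of neighbouring genes in this order overlapped, except those of Cry1 (2.19 to 4.00 FPKM) and Arntl (0.18 to 1.52 FPKM). Arntl thus had the lowest FPKM of the 10 in each library. Its counts were not always the lowest. In ApoE-/- 3 Arntl had 2761 counts, against 746 for Cry1 and 2088 for Dbp. Arntl also had more counts than Cry1 in ApoE-/- 2 and 5 and in NPRC-/-ApoE-/- 3. The order by FPKM therefore depends on the lengths used, which are not given in the sources used here.

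Since these genes share their regulators, promoters of the members were searched for the DNA elements of the clock. RefSeq windows from 250 bases before to 50 bases after the start were found for 9 of the 10 members (13 windows, build GRCm38.p6, Per2 without one). The elements searched on both strands were the E-box CACGTG (in 7.15% of 32817 windows of the same length), its variant CACGTT (4.69%), the core AGGTCA bound by REV-ERB and ROR receptors (16.3%), the D-box as TTATGTAA or TTACGTAA (1.05%) and the cAMP element TGACGTCA (1.79%). None of the motifs contains another. An E-box was in windows of 2 members (Per1 and Cry1), CACGTT in those of 3 (Cry1, Cry2 and Nr1d1) and AGGTCA in those of 4 (Arntl, Clock, Per1 and Nr1d2). A D-box was in that of Per3, and the cAMP element in 0. Counted by window, as the shares above are, these were 2, 3, 4, 1 and 0 of the 13 windows. The 250 bases before the start are shown for the promoters of Per1, Per3, Cry1 and Nr1d1, with matches to these motifs in capitals. Those of Clock, Cry2 and Nr1d2, which also held matches, are not shown.
Per1 (chr11:69098699-69098948, plus strand): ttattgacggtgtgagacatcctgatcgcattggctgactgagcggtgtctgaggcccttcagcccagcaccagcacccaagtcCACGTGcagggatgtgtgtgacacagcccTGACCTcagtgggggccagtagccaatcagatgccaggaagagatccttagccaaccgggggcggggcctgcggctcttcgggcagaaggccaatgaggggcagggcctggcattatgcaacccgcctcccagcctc
Per3 (chr4:151044666-151044915, minus strand): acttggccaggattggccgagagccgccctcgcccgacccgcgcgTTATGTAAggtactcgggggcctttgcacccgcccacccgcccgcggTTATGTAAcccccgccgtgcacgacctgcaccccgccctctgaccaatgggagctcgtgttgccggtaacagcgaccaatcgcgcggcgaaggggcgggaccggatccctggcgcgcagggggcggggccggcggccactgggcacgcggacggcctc
Cry1 (chr10:85185055-85185304, minus strand): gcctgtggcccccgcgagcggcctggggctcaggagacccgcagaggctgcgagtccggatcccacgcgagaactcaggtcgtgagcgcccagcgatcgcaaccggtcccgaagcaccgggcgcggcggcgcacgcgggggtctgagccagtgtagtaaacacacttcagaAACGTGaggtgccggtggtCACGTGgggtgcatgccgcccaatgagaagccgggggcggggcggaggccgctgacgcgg
Nr1d1 (chr11:98775378-98775627, minus strand): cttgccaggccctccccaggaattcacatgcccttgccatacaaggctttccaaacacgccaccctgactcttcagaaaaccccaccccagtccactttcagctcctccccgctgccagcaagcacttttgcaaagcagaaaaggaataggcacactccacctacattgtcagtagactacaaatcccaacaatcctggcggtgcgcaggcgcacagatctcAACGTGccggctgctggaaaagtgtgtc
Per1 had 2 windows, both at starts inside the gene span given below, and only the one shown held matches. In this window of Per1 the E-box began 166 bases before the start and AGGTCA, on the opposite strand, 137 bases before it. Per3 held the D-box to which DBP binds in 2 copies, 205 and 158 bases before the start. In Cry1 the E-box began 60 bases and the variant, on the opposite strand, 79 bases before the start, and in Nr1d1 the variant began 28 bases before it.

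Of the motifs, the only match in the windows of Arntl lay after a start site, at chr7:113207542-113207547, and is shown with its surroundings on the plus strand, AGGTCA in capitals.
Arntl (chr7:113207530-113207559): aaggcagaaagtAGGTCAgggacggaggtg
A match gives the letters of the reference genome and not the binding of a factor, and no binding was measured in these samples.

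Arntl (ENSMUSG00000055116) lies on chromosome 7 from 113207465 to 113314126, plus strand (build GRCm38, which all positions use). Its FPKM in the libraries titled ApoE-/- 1 to 5 was 0.35, 0.51, 1.52, 0.42 and 0.80. In the libraries titled NPRC-/-ApoE-/- 1 to 3 it was 0.31, 0.18 and 0.76. ApoE-/- 3 stood above all others, the titled groups overlapped, and the counts behind these values ran from 254 to 2761. Because only that library reached 1 FPKM, Arntl was outside the 20506 loci tested, which had at least 1 FPKM in at least 3 libraries, and its test comes from a fit of all 44689 loci with a count. There its log2 fold change (NPRC-/-ApoE-/- over ApoE-/-) was -0.76 by title, with a standard error of 0.59 and a Benjamini-Hochberg adjusted p of 0.60 in edgeR's quasi-likelihood test. For the genotype entry it was 0.18 (standard error 0.62, adjusted p = 1, edgeR). Single libraries decided the size of the value by title, which was -0.24 without ApoE-/- 3, -0.36 without NPRC-/-ApoE-/- 2 and -1.56 without NPRC-/-ApoE-/- 3. In the last of these Arntl met the fold change criterion of the study, a change above 2-fold with an unadjusted p-value under 0.05 (unadjusted p = 0.033, adjusted p = 0.77, edgeR). A second assembled locus named Arntl, on the opposite strand near the 5′ end, had 0.21 to 0.70 FPKM and was also highest in ApoE-/- 3 and lowest in NPRC-/-ApoE-/- 2. Whether the counting separated the strands is not given in the sources used here.

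Clock (ENSMUSG00000029238, minus strand, chromosome 5 from 76209868 to 76304792) encodes the partner of ARNTL. By title, ApoE-/- 1 to 5 had 4.63, 3.53, 4.27, 3.84 and 5.28 FPKM, and those titled NPRC-/-ApoE-/- 1 to 3 had 3.68, 3.82 and 5.04 FPKM. Clock was nearly level, with an SD of 0.23 in log2 CPM over the 8 libraries against 0.98 for Arntl and a median of 0.34 over all loci tested. Its log2 fold change was -0.01 by title (standard error 0.17, adjusted p = 0.98, edgeR) and 0.27 by genotype entry (adjusted p = 1.00, standard error 0.15). The locus also holds the pseudogene Ube2n-ps1, whose reads cannot be told apart from those of Clock.

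The nuclear receptors Nr1d1 and Nr1d2 repress Arntl. Nr1d1 (ENSMUSG00000020889, minus strand, chromosome 11 from 98767932 to 98775333) had 11.4, 13.6, 5.41, 6.57 and 4.68 FPKM in ApoE-/- 1 to 5 by title. It had 11.7, 11.9 and 16.7 FPKM in those titled NPRC-/-ApoE-/- 1 to 3. ApoE-/- 3, 4 and 5 were low and the other 5 libraries were above 11 FPKM, so the titled groups overlapped only through ApoE-/- 2. Nr1d1 had a log2 fold change of 0.73 by title (standard error 0.35, adjusted p = 0.39, edgeR), the largest by title among the 9 tested members, and -0.13 by genotype entry (adjusted p = 1.00, standard error 0.43). Its assembled locus runs past the annotated gene to 98765109, and its 3′ end overlaps Thra on the other strand.

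Nr1d2 (ENSMUSG00000021775, minus strand, chromosome 14 from 18204054 to 18239127) had 14.3, 11.2, 5.28, 4.89 and 4.66 FPKM in ApoE-/- 1 to 5 by title and 7.12, 14.7 and 8.57 FPKM in those titled NPRC-/-ApoE-/- 1 to 3. The same 3 libraries as for Nr1d1 were lowest. Its log2 fold change was 0.37 by title (standard error 0.41, adjusted p = 0.72, edgeR), and by genotype entry it was -0.74 (adjusted p = 1.00, standard error 0.38), so the sign depended on the label used.

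Dbp (ENSMUSG00000059824) lies on the plus strand of chromosome 7 from 45705088 to 45710203, and its 3′ end overlaps Sphk2 on the other strand. In the libraries titled ApoE-/- 1 to 5 it had 22.6, 17.6, 5.39, 14.2 and 8.85 FPKM, while those titled NPRC-/-ApoE-/- 1 to 3 had 19.4, 23.3 and 14.9 FPKM. ApoE-/- 3 and 5 were the lowest libraries, and the 3 libraries titled NPRC-/-ApoE-/- lay within the range of the others or, for NPRC-/-ApoE-/- 2, just above it. The log2 fold change of Dbp was 0.51 by title (standard error 0.38, adjusted p = 0.57, edgeR) and -0.41 by genotype entry (adjusted p = 1.00, standard error 0.42).

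The 3 Per genes encode the repressors that limit ARNTL and CLOCK. Per2 (ENSMUSG00000055866, minus strand, chromosome 1 from 91415982 to 91459324) had 7.80, 6.16, 4.64, 7.26 and 9.51 FPKM in ApoE-/- 1 to 5 by title, and 8.06, 15.2 and 9.33 FPKM in those titled NPRC-/-ApoE-/- 1 to 3. NPRC-/-ApoE-/- 2 stood above the rest, and the titled groups overlapped through ApoE-/- 5. Per2 was the only tested member with an unadjusted p-value under 0.05 by title (log2 fold change 0.65, standard error 0.25, unadjusted p = 0.027, adjusted p = 0.32, edgeR). The change of Per2 was 0.09 on the log2 scale by genotype entry (standard error 0.34, adjusted p = 1.00, edgeR).

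Per3 (ENSMUSG00000028957, minus strand, chromosome 4 from 151003652 to 151044665) lies inside the much longer gene Camta1 on the same strand. It had 5.70, 3.49, 2.12, 4.02 and 4.64 FPKM in ApoE-/- 1 to 5 by title and 5.36, 7.06 and 4.54 FPKM in those titled NPRC-/-ApoE-/- 1 to 3. The order of the libraries followed that of Per2 in part, with ApoE-/- 3 lowest and NPRC-/-ApoE-/- 2 highest for both. Its log2 fold change was 0.53 by title (standard error 0.26, adjusted p = 0.41, edgeR) and -0.07 by genotype entry (adjusted p = 1.00, standard error 0.33).

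Per1 (ENSMUSG00000020893, plus strand, chromosome 11 from 69095217 to 69109960) is also induced by glucocorticoids and cAMP. In the libraries titled ApoE-/- 1 to 5 it had 9.35, 10.7, 11.4, 11.4 and 6.36 FPKM, and in those titled NPRC-/-ApoE-/- 1 to 3 it had 10.6, 11.2 and 12.3 FPKM. Unlike Per2 and Per3 it was not low in ApoE-/- 3, and ApoE-/- 5 alone stood below 9 FPKM. By title the log2 fold change was 0.22, with a standard error of 0.23 (adjusted p = 0.68, edgeR), and by genotype entry -0.04 (adjusted p = 1.00, standard error 0.24).

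Cry1 and Cry2 encode the cryptochromes, which join PER in blocking transcription. Cry1 (ENSMUSG00000020038, minus strand, chromosome 10 from 85131700 to 85185064) had 2.57, 2.44, 2.26, 3.28 and 4.00 FPKM in ApoE-/- 1 to 5 by title, and 2.48, 3.87 and 2.19 FPKM in those titled NPRC-/-ApoE-/- 1 to 3. ApoE-/- 4 and 5 and NPRC-/-ApoE-/- 2 were high and the other 5 libraries lay close together. Its log2 fold change was -0.01 by title (standard error 0.24, adjusted p = 0.99, edgeR) and 0.23 by genotype entry (adjusted p = 1.00, standard error 0.23).

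Cry2 (ENSMUSG00000068742, minus strand, chromosome 2 from 92403646 to 92434043) had 2.93, 2.47, 2.91, 2.41 and 3.14 FPKM in ApoE-/- 1 to 5 by title and 2.74, 3.63 and 3.39 FPKM in those titled NPRC-/-ApoE-/- 1 to 3. Its assembled locus begins at 92295165, far beyond the end of the gene, and spans Mapk8ip1, Large2, Pex16 and part of Phf21a, with D930015M05Rik opposite to the gene itself, so its counts may hold reads of other transcripts. The log2 fold change was 0.26 by title (standard error 0.14, adjusted p = 0.45, edgeR) and 0.05 by genotype entry (adjusted p = 1.00, standard error 0.17).

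Grouped by title, 0 of the 9 tested members had an adjusted p-value under 0.05, where 0% of all 20506 loci did, and 1 of the 9 had an unadjusted p-value under 0.05, where 13.6% of all loci did. A fold change above 2 or below 0.5 together with an unadjusted p-value under 0.05, the criterion of the study, was met by 0 of the 9 and by 3.47% of all loci. For 7 of the 9 the log2 fold change was above 0, as it was for 49.1% of all loci, and the median over the 9 was 0.37 against -0.01 over all loci. In the fit without a filter, Arntl was not among the 10.4% of loci with an unadjusted p-value under 0.05 or the 0% with an adjusted one. The titled groups overlapped for all 10 genes, whereas they did not overlap for 7.41% of all loci tested.

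By genotype entry, 0 of the 9 had an adjusted p-value under 0.05 (0% of all loci), 0 an unadjusted one (1.31% of all loci), and 0 met the fold change criterion (0.463% of all loci). The log2 fold change was above 0 for 4 of the 9, and for 49% of all loci, and 7 of the 9 had opposite signs by title and by genotype entry. In the fit without a filter, 0% of loci had an adjusted and 2.22% an unadjusted p-value under 0.05 by genotype entry, and Arntl was not among them. The entered groups overlapped for all 10 genes, and did not overlap for 1.21% of all loci.

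**Figure D2:**
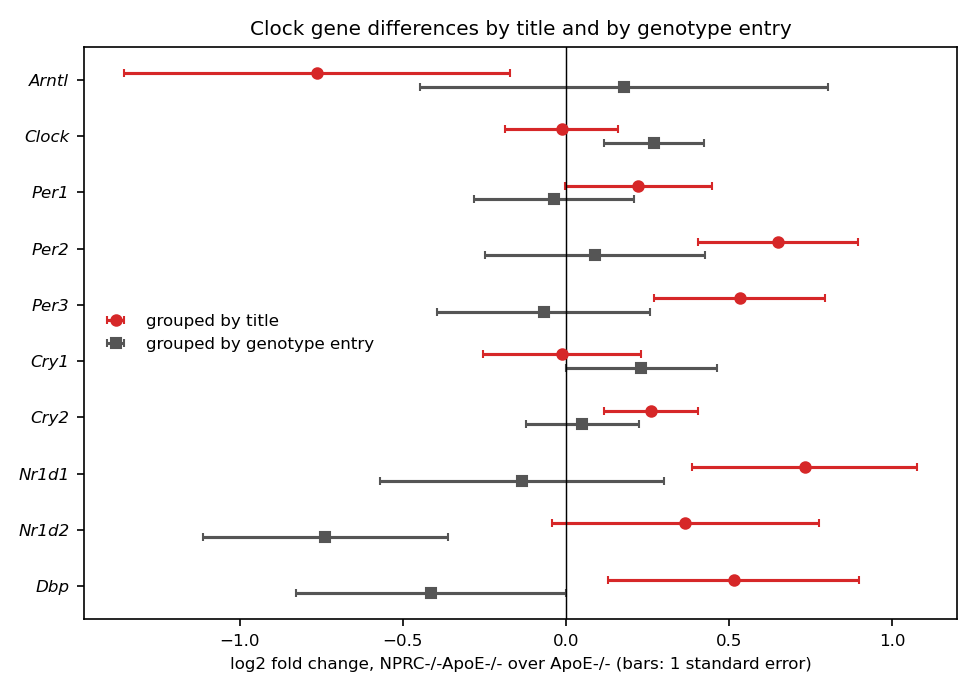
Log2 fold change of each clock gene (NPRC-/-ApoE-/- over ApoE-/-) with bars of 1 standard error from edgeR, for the groups by title (circles) and by genotype entry (squares). By title the values run from -0.76 for Arntl to 0.73 for Nr1d1, and by genotype entry from -0.74 for Nr1d2 to 0.27 for Clock. The values of Arntl come from the fit without a filter.

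The call of Per2 at an unadjusted p-value under 0.05 was lost when certain single libraries were left out. Without ApoE-/- 3 its log2 fold change was 0.55 (unadjusted p = 0.051, edgeR), and without ApoE-/- 2 it was 0.60 (unadjusted p = 0.057). Without NPRC-/-ApoE-/- 2 it fell to 0.37 (unadjusted p = 0.16). In the first and last of these fits 0 tested members had an unadjusted p-value under 0.05. Without ApoE-/- 2 the only one was Nr1d1 (unadjusted p = 0.015, adjusted p = 0.45, edgeR). Without ApoE-/- 1 there were 3 such members and without NPRC-/-ApoE-/- 1 there were 2. In these bulk samples, fewer cells of a type and less RNA per cell cannot be told apart. Markers of other cell types differed in direction between the titled groups, although none of those tested had an adjusted p-value under 0.05 in edgeR (unadjusted, 6.51% of all loci were higher and 7.13% lower). Of 10 smooth muscle markers, 10 had a log2 fold change above 0 and 9 an unadjusted p-value under 0.05, and their summed level was 6616 to 8525 CPM in the libraries titled ApoE-/- and 8235 to 15516 CPM in those titled NPRC-/-ApoE-/-. All 10 macrophage markers were tested, of which 9 had a log2 fold change below 0 and 4 an unadjusted p-value under 0.05, and the summed level was 1635 to 4615 CPM against 1078 to 2402 CPM. For 8 tested neuron and Schwann cell markers of 10, all 8 were below 0 and 6 had an unadjusted p-value under 0.05, with 79.7 to 199 CPM against 48.2 to 81.3 CPM, and Th was at 0 in 1 library. By genotype entry, 0 markers of these 3 lists had an unadjusted p-value under 0.05, and the median log2 fold changes were 0.17, -0.16 and -0.24. Their part in the values of the clock genes was not tested.

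The next question was whether the clock genes varied together from library to library, whatever the label. Arntl and Dbp ran in opposite directions. In log2 CPM, Arntl was 2.89, 3.47, 5.17, 3.31 and 4.06 in ApoE-/- 1 to 5 and 2.78, 1.99 and 4.16 in NPRC-/-ApoE-/- 1 to 3. Dbp was 6.67, 6.33, 4.77, 6.14 and 5.30 log2 CPM in the first 5 and 6.495, 6.77 and 6.22 log2 CPM in the other 3. Pearson's r was -0.89 (two-sided exact permutation p = 0.0010 over 8 libraries, 0.0094 after Benjamini-Hochberg adjustment over the 9 correlations of Arntl), and Spearman's rho was -0.86 (exact permutation p = 0.011, adjusted 0.096). The value of r was -0.86 after centring within the titled groups and -0.88 after centring by genotype entry. Without ApoE-/- 3 and NPRC-/-ApoE-/- 2, the libraries with the most extreme Arntl, r was -0.72 over the remaining 6 and no longer passed (exact permutation p = 0.075), so the relation rested in part on these 2 libraries.

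Per3 was the only other gene whose Pearson correlation with Arntl passed after adjustment, with r = -0.86 (exact permutation p = 0.0084, adjusted 0.038 over the 9) and rho = -0.76 (exact permutation p = 0.037, adjusted 0.17). It rested on the same extreme libraries, since r was -0.36 without them (exact permutation p = 0.50 over 6 libraries). For Per2, r was -0.65 (exact permutation p = 0.079, adjusted 0.22) and turned to 0.53 without these 2 libraries. The repressors of Arntl had r = -0.61 for Nr1d2 (exact permutation p = 0.11, adjusted 0.22) and r = -0.42 for Nr1d1 (exact permutation p = 0.30, adjusted 0.45). Clock had r = 0.59 (exact permutation p = 0.12, adjusted 0.22). The correlations of Arntl with Per1 (r = 0.03), Cry2 (r = 0.04) and Cry1 (r = -0.35) did not pass either (adjusted exact permutation p = 0.94, 0.94 and 0.52), and no Spearman correlation of the 9 passed after adjustment.

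**Figure D3:**
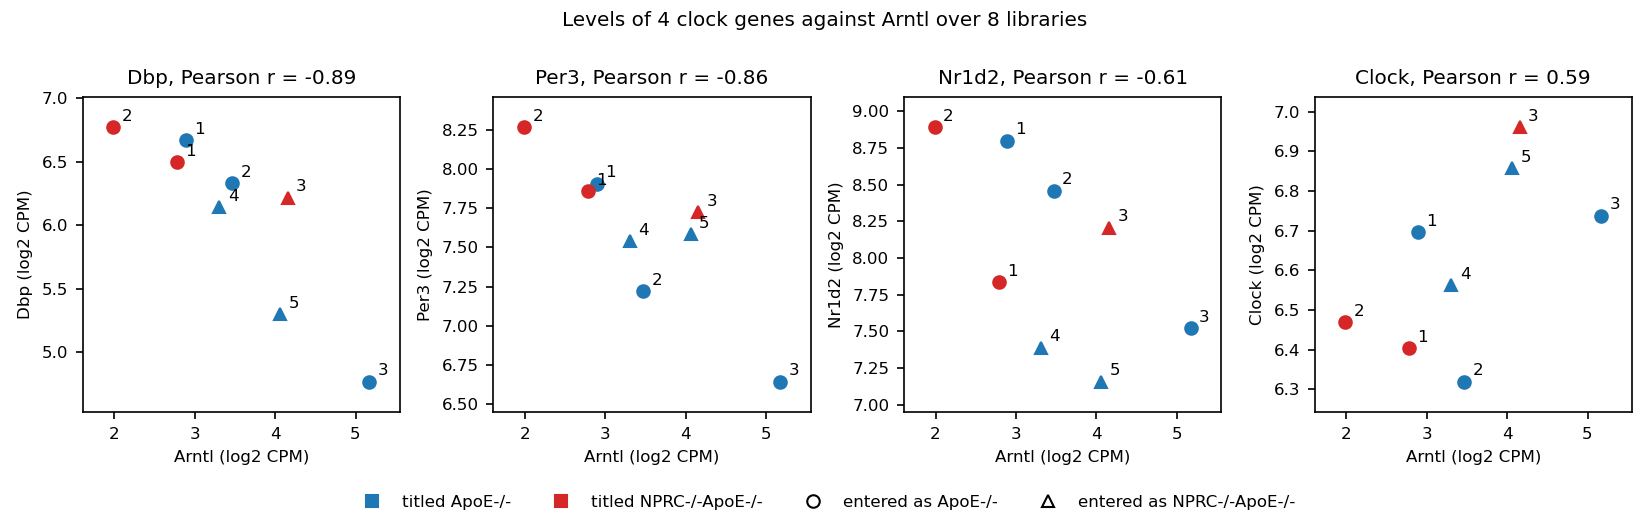
Log2 CPM of Dbp, Per3, Nr1d2 and Clock against log2 CPM of Arntl, 1 point per library with its number in the title. Colour gives the titled group and marker shape the genotype entry. Dbp is 4.77 log2 CPM where Arntl is 5.17 (ApoE-/- 3) and 6.77 log2 CPM where Arntl is 1.99 (NPRC-/-ApoE-/- 2).

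Among the genes activated by ARNTL and CLOCK, levels went together in several pairs. The values are a description over 8 libraries that share their depth and scaling within each library. Pearson's r was 0.87 for Per2 with Per3, 0.81 for Per3 with Dbp and 0.76 for Nr1d1 with Nr1d2. It was 0.75 for Dbp with each of Nr1d1 and Nr1d2. Per1 had r = 0.54 with Nr1d1, 0.26 with Nr1d2, 0.19 with Dbp, -0.067 with Per2 and -0.14 with Per3. Cry1 had its most negative value with Nr1d1, at -0.50.

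**Figure D4:**
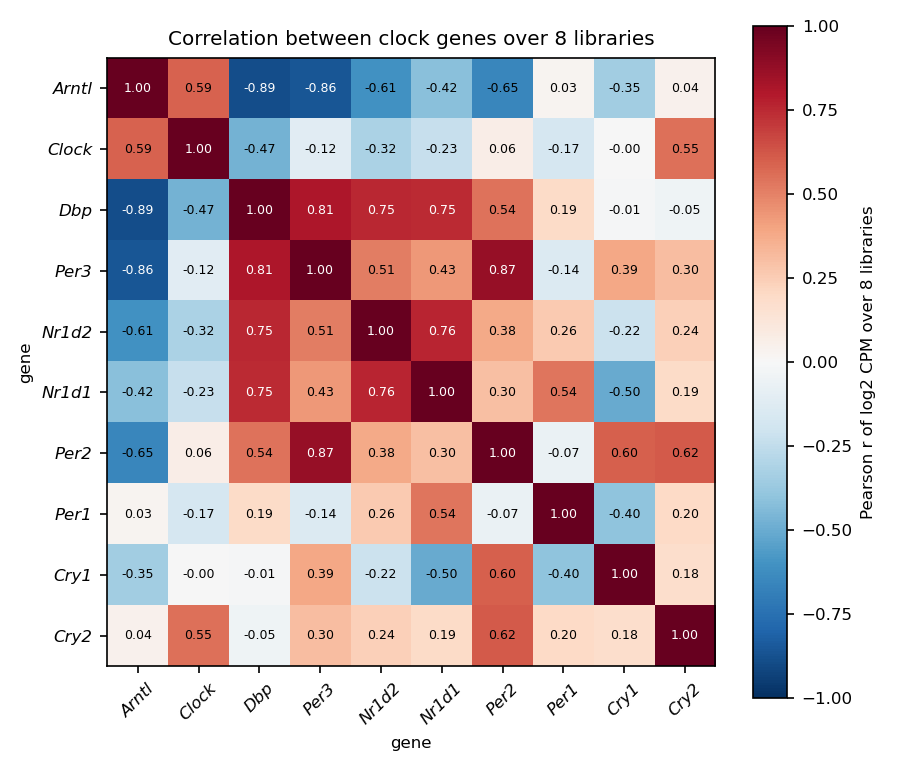
Pearson correlation of log2 CPM over the 8 libraries for each pair of clock genes, from -1 (blue) to 1 (red). Arntl is negative with Dbp (-0.89) and Per3 (-0.86), and Per2 with Per3 is the highest pair (0.87).

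To place each library, the mean log2 CPM of Dbp, Per1, Per2, Per3, Nr1d1 and Nr1d2 minus that of Arntl and Clock was taken and called the arm difference. It was 2.69, 2.39, 0.62, 2.13 and 1.20 in ApoE-/- 1 to 5 and 2.76, 3.59 and 2.00 in NPRC-/-ApoE-/- 1 to 3. ApoE-/- 3 and 5 had the lowest values and NPRC-/-ApoE-/- 2 the highest, and both groupings overlapped. The mean was 1.81 ± 0.87 (SD, n = 5) by title ApoE-/- and 2.78 ± 0.80 (SD, n = 3) by title NPRC-/-ApoE-/-. By genotype entry the order of the means was the opposite, 2.41 ± 1.098 (SD, n = 5) and 1.78 ± 0.51 (SD, n = 3). On the FPKM scale, Dbp was 3.55 times Arntl in ApoE-/- 3 and 129.6 times Arntl in NPRC-/-ApoE-/- 2. In log2 CPM, which is not scaled by length, Dbp minus Arntl was -0.40 and 4.785 in these libraries.

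ApoE-/- 3 and NPRC-/-ApoE-/- 2 also stood at the ends of the summed levels of brown fat, fibroblast and neuron and Schwann cell markers, whereas other libraries held both ends for smooth muscle, macrophage, endothelium and muscle markers. The summed level of 10 brown fat markers was 490 CPM in ApoE-/- 3 and 797.8 to 1792 CPM in the other libraries, with the highest value in NPRC-/-ApoE-/- 2. By title 10 of the 10 had a log2 fold change above 0 and 0 an unadjusted p-value under 0.05. For 10 fibroblast markers, of which 10 were below 0 by title and 2 had an unadjusted p-value under 0.05, the summed level was 13524 CPM in ApoE-/- 3, the highest, and 3089 CPM in NPRC-/-ApoE-/- 2, the lowest. White fat markers were lowest in ApoE-/- 3 at 639.1 CPM, against 1031 to 2104 CPM elsewhere and 1299.8 CPM in NPRC-/-ApoE-/- 2, and of the 9 tested 6 were above and 3 below 0 by title. All 10 brown fat, 10 fibroblast and 10 white fat markers had counts in each library. The part of fat or fibroblast content in the clock gene values was not tested, nor was that of the hour of dissection.

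Clock genes that were not members showed the same contrast between these libraries. Npas2, which can replace CLOCK as the partner of ARNTL, had 1.07 FPKM in ApoE-/- 3 and 0.96 FPKM in NPRC-/-ApoE-/- 3 and at most 0.53 FPKM in the other libraries. Its correlation with Arntl was r = 0.78 over 8 libraries. Nfil3, the repressor that competes with DBP at D-box DNA, had 6.22 FPKM in ApoE-/- 3 and 0.97 to 2.72 FPKM elsewhere (r = 0.80 with Arntl). Ciart, which encodes a further repressor of ARNTL and CLOCK, ran the other way, with 0.56 FPKM in ApoE-/- 3, 1.62 FPKM in ApoE-/- 5 and 4.18 FPKM in NPRC-/-ApoE-/- 2. It had r = -0.79 with Arntl and r = 0.92 with Dbp. Hlf and Tef, the relatives of Dbp, had r = -0.69 and -0.57 with Arntl and r = 0.57 and 0.55 with Dbp. These values are descriptions without a test.

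**Figure D5:**
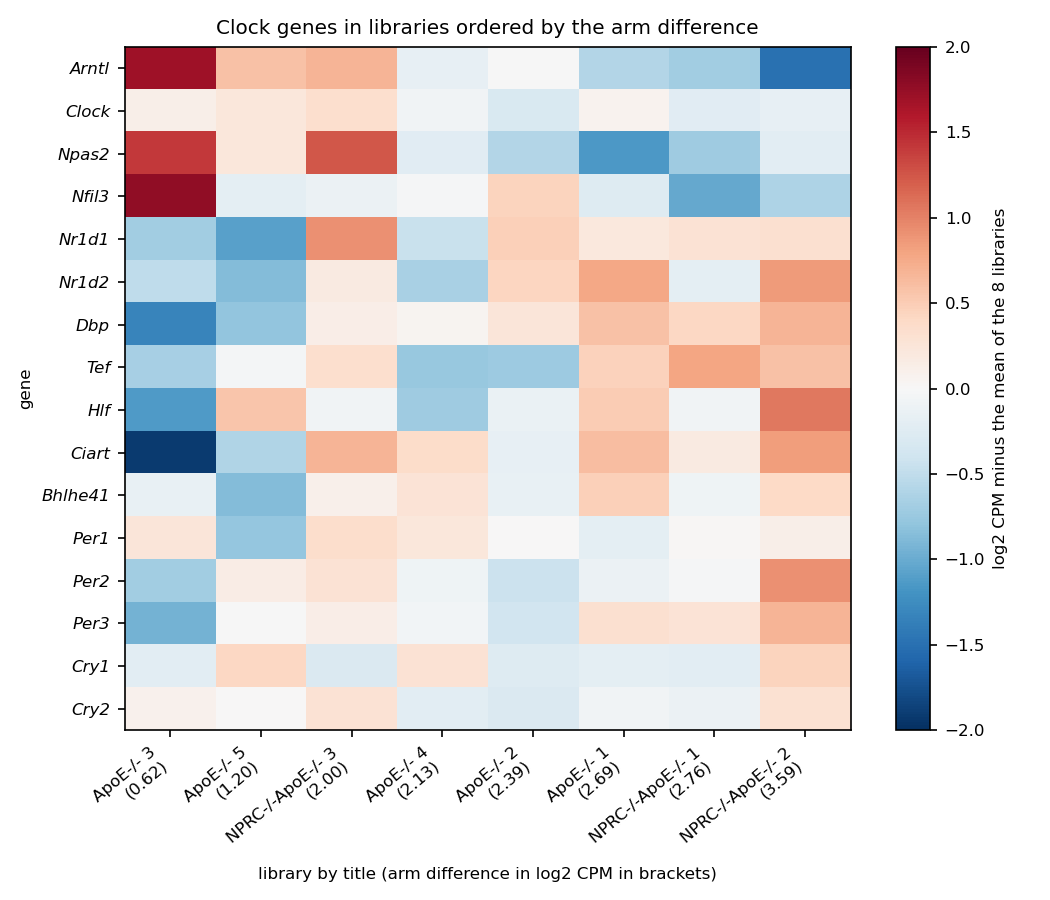
Log2 CPM of the 10 clock genes and 6 other clock genes minus the mean of the 8 libraries, from -2 (blue) to 2 (red), with the libraries ordered by the arm difference in log2 CPM given in brackets. Arntl, Npas2 and Nfil3 are highest at the left end, in ApoE-/- 3 (0.62), while Dbp, Ciart and Per3 are lowest there, and the titled groups are mixed along the order. Arntl, Dbp and Per3 are part of the arm difference and so help to set this order, whereas Npas2, Nfil3 and Ciart are not.

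Of 12 further clock transcription factors, 9 were tested, and Npas2, Rorb and Timeless were below the filter. By title, 5 were above and 4 below 0, and 1 had an unadjusted p-value under 0.05, where 6.51% of all loci had such a p-value and were higher in NPRC-/-ApoE-/-, and 7.13% were lower. It was Tef, with a log2 fold change of 0.84 (standard error 0.29, adjusted p = 0.31, edgeR). Nfil3 had -1.12 (standard error 0.50, adjusted p = 0.37), Bhlhe40, a repressor at E-box DNA, -0.71 (standard error 0.32, adjusted p = 0.37) and Ciart 0.70 (standard error 0.47, adjusted p = 0.53) by the same test. By genotype entry the values were -0.31 for Tef, -0.55 for Nfil3, -0.14 for Bhlhe40 and 0.08 for Ciart, and 0 of the 9 had an unadjusted p-value under 0.05. Of the other factors of this list, Arntl2, Rora, Bhlhe41 and Hlf had log2 fold changes between -0.14 and 0.45 by title.

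The kinases, ubiquitin ligases and cofactors that set the pace and stability of clock proteins were counted next. Of 20 such genes 19 were tested, with 7 above and 12 below 0 by title, a median log2 fold change of -0.08, and 0 with an adjusted p-value under 0.05. Prkaa2, a catalytic subunit of AMP-activated kinase, had the largest value of the list (log2 fold change 0.60, standard error 0.17, adjusted p = 0.27, edgeR). It had the only unadjusted p-value under 0.05 of the 19, where 13.6% of all loci had one. Its titled groups did not overlap, as in 7.41% of all loci, and by genotype entry it had 0.095 (standard error 0.27). Csnk2a1 had -0.39, Cipc 0.36 and Skp1a -0.34. Across the 8 libraries Cipc, an inhibitor of CLOCK, varied 5.34-fold, from 1.18 to 6.30 FPKM. Csnk1d and Csnk1e, which encode the casein kinases that phosphorylate PER, had -0.08 (standard error 0.12) and -0.16 (standard error 0.14).

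Output genes that are rhythmic in many tissues were all tested (15 of 15). By title 10 were above and 5 below 0, the median was 0.16, and 0 had an adjusted p-value under 0.05. The list shares Tef, Hlf, Ciart, Nfil3 and Bhlhe41 with the transcription factors above and Usp2 and Nampt with the cofactors. The largest value outside the shared genes was that of Lonrf3, -0.67 (standard error 0.34, adjusted p = 0.42, edgeR). Wee1, a cell cycle kinase, had 0.19 (standard error 0.28). By genotype entry 5 of the 15 were above and 10 below 0, with a median of -0.16.

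The genes most like Arntl over the 8 libraries were sought among 14081 named loci with a mean of at least 1 FPKM. The highest Pearson correlations were those of Bbs4 (0.96), Rasl11a (0.95), Evi5l (0.94), Usp11 (0.93), Clec11a (0.93) and 9330111N05Rik (0.92). The lowest were those of Gm17833 (-0.96), Fam206a (-0.93), Ids (-0.93), Wnk4 (-0.92), Hdac10 (-0.91) and Dbp (-0.89), so that Dbp ranked 6 and Per3 ranked 18 from the bottom. For Dbp, the locus of Spef1 and Cenpb (0.96), Prkca (0.95), Epm2aip1 (0.93), Ciart (0.92), Cxadr (0.91) and Hspa1l (0.91) came first. Rbks (-0.95), Rasl11a (-0.95), Dtwd1 (-0.93), Evi5l (-0.91), Aqr (-0.91) and Gtf3c6 (-0.89) came last. Such ranks follow from 8 points and many loci and are given as a description.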

How the data were processed

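Poly(A) RNA of the aorta was sequenced in 8 libraries. The authors removed low-quality bases (cutadapt 1.9 in the submitters' processing notes), mapped the remainder to build GRCm38 by HISAT2 and built transcripts per sample by StringTie. The authors deposited raw counts and FPKM values for each assembled locus. How counts were made from the assembly and whether strand was used are not given in the sources used here. The table had 0 columns of values without a sample. Total counts were 62969165 to 86693276 per library, and no member had fewer than 254 counts in any library.

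Counts of the 20506 loci (of 48607) that reached 1 FPKM in 3 or more libraries were tested with edgeR 4.0.16 in R 4.3.3 (TMM, dispersion trend, quasi-likelihood test), with p-values adjusted over all loci by the Benjamini-Hochberg method. The test was tried on simulated data with known changes. Correlations used exact permutation over 40320 pairings of libraries (numpy 2.4.6). Alternatives were the genotype entry, DESeq2 1.42.0, limma 3.58.1, scaling, pseudocount, filter, replicate block and each library left out. The clock genes, gene lists and tests were chosen with earlier results of these data known. All 10 members are named, and of each other list up to 4 genes with the largest change by title, beside the clock transcription factors. Wee1, Csnk1d, Csnk1e, Crem and Fkbp5 were named after their values were seen. The genes named for likeness are the 6 highest and the 6 lowest correlations. Gene positions are from GENCODE M21.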

Additional observations from a re-analysis of the deposited data

Results flagged for a closer look

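In 3 of 22 groups of 5 libraries (10 genes and the arm difference, by title and by genotype entry), the library at the end of the range lay farther from its neighbour than a Dixon ratio of 0.71 allows. Chance flags about 1 group in 20. All 3 were groups by genotype entry. Among the libraries entered as ApoE-/-, Dbp was lowest in the library titled ApoE-/- 3, at 4.77 log2 CPM, and Nr1d1 was lowest in the same library, at 6.04 log2 CPM. Cry1 was highest in the library titled NPRC-/-ApoE-/- 2, at 3.95 log2 CPM, a library whose title and entry conflict. No gene was far in this way in the 5 libraries titled ApoE-/-, and the 3 titled NPRC-/-ApoE-/- were too few for the screen. The cause was not tested.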

How the results depend on the processing

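The filterByExpr alternative was chosen after seeing the data. Under each of the 21 alternatives, leaving out each library included, 0 of the clock genes that passed the filter had an adjusted p-value under 0.05. Likewise 0 met the fold change criterion (0 to 0 over the libraries left out), as was the case by genotype entry. These were the 9 genes of the main test, except with the filter of a mean of at least 5 FPKM. There only Per1, Per2, Nr1d1, Nr1d2 and Dbp were tested. Arntl, tested without a filter, had a smallest adjusted p-value of 0.56 in its 19 alternatives, but its log2 fold change ranged from -1.56 to -0.24 over the libraries left out, met the fold change criterion without NPRC-/-ApoE-/- 3, and had an unadjusted p of 0.037 with the replicate block. The smallest adjusted p-value was 0.074, for Per2 with limma-voom and sample quality weights, which gave 4 clock genes an unadjusted p-value under 0.05 against 1 in the main test, while DESeq2 gave 2.

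Grouped by genotype entry, the log2 fold change turned to 0.18 for Arntl, 0.27 for Clock, -0.037 for Per1, -0.068 for Per3, 0.23 for Cry1, -0.13 for Nr1d1, -0.74 for Nr1d2 and -0.41 for Dbp. In the 4 libraries with agreeing labels (3 against 1, the lone library assumed to vary like the others) it was 0.36 for Clock and -0.15 for Nr1d2. Clock and Cry1, both near 0, also turned with upper-quartile factors (0.028 and 0.026) and with quality weights (0.019 and 0.13). Over the libraries left out in turn the values ran from -0.20 to 0.090 for Clock and from -0.26 to 0.13 for Cry1.

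Deviations of same-numbered libraries from their group means had correlations of -0.31, -0.11 and 0.01, so pairing by the replicate numbers 1 to 3 was not seen. With 3 libraries of each title, these values cannot exclude a pairing. With the replicate block in these 6 libraries, 0 clock genes had an adjusted and 1 an unadjusted p-value under 0.05, as without it, and Clock and Cry1 were at 0.029 and 0.21, against 0.039 and 0.25 without the block.

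The correlation of Arntl with Dbp was -0.95 to -0.77 over the libraries left out and kept its sign with other scales. Its unadjusted exact permutation p-values stayed under 0.05 in these alternatives, the largest being 0.035 without ApoE-/- 3 (r = -0.77). They were not adjusted over the correlations of Arntl, unlike in the main test. Whether the correlation passes after adjustment without ApoE-/- 3 was therefore not tested. The range of the arm difference was 2.98 in log2 CPM and 1.80 in log2(FPKM + 1), a scale that compresses genes under 1 FPKM such as Arntl.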

Other observations

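Genes induced by cAMP through CREB, which also act on Per1, were lower by title in part. Of 10 such genes 9 were tested, with 3 above and 6 below 0, a median log2 fold change of -0.73, and 4 lower genes with an unadjusted p-value under 0.05 (Fos, Nr4a2, Nr4a1 and Crem), where 7.13% of all loci were. None had an adjusted p-value under 0.05. Fos, an immediate early gene, had 15.3, 80.3, 104.9, 41.9 and 12.7 FPKM in ApoE-/- 1 to 5 by title and 12.8, 11.9 and 13.1 FPKM in NPRC-/-ApoE-/- 1 to 3 (log2 fold change -2.03, standard error 0.72, adjusted p = 0.31, edgeR). ApoE-/- 2, 3 and 4 were high, and the other 2 libraries titled ApoE-/- were at the level of those titled NPRC-/-ApoE-/-. Per1, a member of the same list, had a log2 fold change of 0.22. By genotype entry 2 of the 9 were above and 7 below 0, and 0 had an unadjusted p-value under 0.05.

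Glucocorticoid-responsive genes, among which Per1 is counted too, were all tested (11 of 11). By title 6 were above and 5 below 0, with a median of 0.02. Klf9, a transcription factor induced by glucocorticoids, ran from 21.02 to 25.7 FPKM under the title ApoE-/- and from 29.5 to 34.4 FPKM under NPRC-/-ApoE-/- (log2 fold change 0.47, standard error 0.14, unadjusted p = 0.010, adjusted p = 0.28, edgeR), without overlap, as in 7.41% of all loci. By genotype entry its groups overlapped and the log2 fold change was 0.14 (standard error 0.22). Sgk1 had -0.59, Zbtb16 0.45 and Dusp1 -0.37, with adjusted p-values from 0.43 to 0.64 by the same test. By genotype entry Fkbp5 had the only unadjusted p-value under 0.05 of this list (log2 fold change 1.19, standard error 0.46, adjusted p = 1.00, edgeR). Of all loci, 1.31% had such a p-value by genotype entry.

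The other marker lists were as follows by title. Of 10 endothelial markers, 3 were above and 7 below 0, with summed levels of 1376 to 1580 and 1401 to 1435 CPM. Of 10 lymphocyte markers 3 were tested and all 3 were below 0, with 158.9 to 292.2 and 57.9 to 156.9 CPM and no overlap, and Ms4a1 was at 0 in 1 library. Of 10 skeletal and heart muscle markers 4 were tested, 3 above and 1 below 0, with 4.56 to 49.7 and 30.3 to 46.7 CPM, and Myh6 was at 0 in 1 library and Myl7 in 3.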
